A study of Mus musculus with 20 samples.

Results

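The genes described here encode matrix metalloproteases (MMPs), proteases of the ADAMTS family, the related ADAMTS-like proteins, and the tissue inhibitors of metalloproteases (TIMPs). They were chosen by symbol alone: every gene of the count table whose symbol begins with Mmp and a digit, with Adamts, or with Timp and a digit. This gave 50 of 32285 genes, namely 22 MMPs, 19 ADAMTS, 5 ADAMTS-like and 4 TIMP genes. Of these, 37 passed the filter on low counts and were tested among 15875 genes (16 MMPs, 14 ADAMTS, 4 ADAMTS-like and 3 TIMPs).

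MMPs are zinc-dependent proteases that cut collagens, proteoglycans and other matrix proteins, and also release growth factors and cytokines from the matrix and the cell surface. ADAMTS proteases cut proteoglycans such as versican and aggrecan or process procollagens, ADAMTS-like proteins share their matrix-binding parts without a protease domain, and TIMPs bind and block the active proteases. In melanoma and other solid tumours they are made both by the tumour cells and by fibroblasts, macrophages and other host cells, and they are studied for their part in invasion, vessel growth and the entry of immune cells.

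RNA was sequenced from 20 whole tumours of B16F10, a pigmented melanoma cell line of C57BL/6 origin, implanted in wild-type immunocompetent mice of that strain. Each of the 4 groups held 5 tumours: IgG control antibody, propafenone (an antiarrhythmic drug that blocks sodium channels), anti-PD-1 (an antibody that blocks the inhibitory T cell receptor PD-1), and propafenone with anti-PD-1, called the combination. Injections were intraperitoneal, treatment started once tumours had reached about 100 mm3, and tumours were taken on day 16. The labels of single tumours name propafenone as the only agent of the propafenone group, whereas the design text lists IgG or anti-PD-1, each with or without propafenone. All groups share the 1 cell line and the host strain, and the labels name neither a vehicle nor separate experiments for the tumours. They do not say which tumours came from separate mice, so p-values measure the spread between these samples.

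The depth per tumour was 55.99 to 64.52 M expected counts (M, 1e6). All 10 melanocyte markers (such as Tyr, Dct and Pmel) were detected in every group, with a summed level of 14510 to 23638 CPM (counts relative to the TMM-scaled library size), so markers of the labelled cell type were present. RNA of host cells was present too, and its amount differed between groups. Summed over 16 fibroblast markers the median was 1131 CPM in IgG, 1008 in propafenone, 1478 in anti-PD-1 and 1550 in combination tumours. Sparc alone averaged 602, 551, 692 and 610 CPM in these groups, so a large part of each sum came from 1 gene. Fap, another of the markers, averaged only 0.574, 0.593, 1.19 and 1.34 CPM. Over 15 macrophage and monocyte markers the medians were 58.9, 135, 224 and 372 CPM in the same order, and over 15 skeletal muscle markers 9.72, 70.5, 197 and 480 CPM. None of these 3 lists had a marker at 0 throughout a group. Neutrophil markers were near the limit of detection (0.458 to 3.44 CPM summed over 11 genes, with Ly6g at 0 in 3 of the 4 groups).

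The promoters of the members called below that have an entry in the RefSeq table (build GRCm38.p6), with that of Mmp3 for contrast, are shown first, since the members differ in the motifs they hold. Each is the 250 bases before the RefSeq start site, 5′ to 3′ on the gene's strand. For Timp2 and Timp3 this start differs from that of the gene positions given below, which come from GENCODE. By those positions the Timp2 window lies inside the gene, as does the end of the Timp3 window with its GC box. Capitals mark a match, on either strand, to the TATA box as TATAAA or the AP-1 site as TGANTCA. They also mark the GC box as GGGCGG and the CCAAT box. The windows are chr4:155653385-155653634 (minus strand) for Mmp23, chr11:118355412-118355661 (minus) for Timp2, chr10:86300162-86300411 (plus) for Timp3 and chr9:7445572-7445821 (plus) for Mmp3.

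Mmp23: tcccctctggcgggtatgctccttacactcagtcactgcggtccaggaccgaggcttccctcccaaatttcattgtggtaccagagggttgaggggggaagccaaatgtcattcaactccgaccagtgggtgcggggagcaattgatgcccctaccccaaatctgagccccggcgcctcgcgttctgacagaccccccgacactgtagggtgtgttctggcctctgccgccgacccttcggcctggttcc

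Timp2: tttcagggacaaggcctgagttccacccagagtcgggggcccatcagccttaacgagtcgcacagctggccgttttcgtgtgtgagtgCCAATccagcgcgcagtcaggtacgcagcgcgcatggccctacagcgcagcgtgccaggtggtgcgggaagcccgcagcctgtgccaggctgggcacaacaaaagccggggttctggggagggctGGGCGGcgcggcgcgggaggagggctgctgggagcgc

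Timp3: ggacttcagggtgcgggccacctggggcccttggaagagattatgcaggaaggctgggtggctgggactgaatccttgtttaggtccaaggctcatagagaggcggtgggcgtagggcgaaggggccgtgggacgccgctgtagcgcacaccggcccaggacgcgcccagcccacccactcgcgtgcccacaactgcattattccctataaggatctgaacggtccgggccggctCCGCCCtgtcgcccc

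Mmp3: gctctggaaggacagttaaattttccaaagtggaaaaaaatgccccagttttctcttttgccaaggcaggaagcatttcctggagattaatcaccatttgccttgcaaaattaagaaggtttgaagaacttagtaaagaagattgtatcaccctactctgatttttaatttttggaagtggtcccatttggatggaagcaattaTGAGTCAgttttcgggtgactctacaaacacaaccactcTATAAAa

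The Mmp23 window held none of the 4 motifs. Timp2 had a GC box at -37 and a CCAAT box at -162, Timp3 a GC box (as its reverse complement) at -15, and Mmp3 a TATA box at -7 and an AP-1 site at -46, counted from the start site. Windows were used for 35 of the 50 genes. A single start site was kept for each of them, and chromosome 18, where Adamts19 lies, was left out. The set of all promoters kept every start site and that chromosome, so the shares are not fully alike. Of these 35, 9 held TATAAA, against 12.4% of 32851 promoters of the same length, and 6 held TGANTCA, against 6.75%. GGGCGG was in 20 of the 35 (32.7% of all promoters) and CCAAT in 7 (33.8%). The 6 genes with TGANTCA were Mmp3, Mmp7, Mmp10, Mmp13, Mmp1b and Mmp20, each of which also held TATAAA. All 6 belong to the cluster of 9 MMP genes at chr9:7272514-7699585. The windows of Mmp23, Timp2 and Timp3 were richer in G and C (61.2%, 68% and 65.6%) than that of Mmp3 (37.6%), and the median over all promoters was 52.4%. A match describes these letters only, and binding was not measured.

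The levels of these genes spanned several orders of magnitude, and a few of them accounted for most of the RNA. Levels are compared between genes in TPM (a level scaled by gene length) as deposited. Over the 20 tumours, 6 genes averaged above 10 TPM, 20 lay between 1 and 10, and 11 of the tested genes were under 1. The 6 were Mmp14 (137.7 TPM), Timp2 (101.8), Timp1 (66.4), Adamts1 (37.9), Timp3 (20.3) and Adamts4 (19.9). Mmp14 encodes MT1-MMP, a transmembrane collagenase that also activates pro-MMP2 together with TIMP2. Neighbours in this order overlapped in range: Mmp14 ran from 92 to 157 TPM, Timp2 from 66.2 to 120 and Timp1 from 47.5 to 134.

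**Figure D1:**
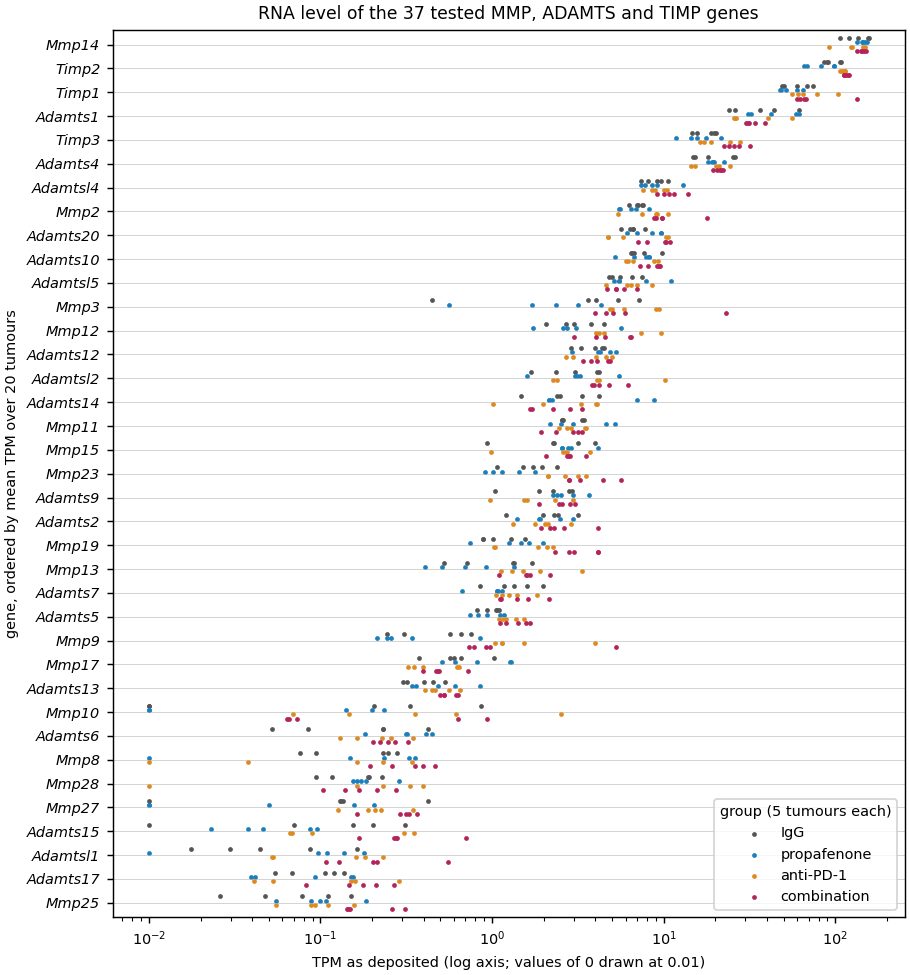
TPM of each of the 37 tested genes (rows, ordered by mean) in each of the 20 tumours (points, coloured by group) on a log axis, with values of 0 drawn at 0.01. Mmp14, Timp2 and Timp1 have the highest means (137.7, 101.8 and 66.4 TPM), and the points of Timp1 overlap those of Adamts1.

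Mmp14 alone made up 67.5% to 89% of the summed TPM of all MMPs in a tumour. Its share averaged 83.6% ± 3.74 (SD, n = 5) in IgG, 85.8% ± 2.38 in propafenone, 77.4% ± 5.69 in anti-PD-1 and 77.6% ± 5.67 in combination tumours. Its own level was 135 ± 22 TPM in IgG, 145 ± 7.3 in propafenone, 127 ± 23 in anti-PD-1 and 143 ± 6.1 in combination tumours, with overlapping ranges and no call in any comparison. The summed TIMP level was lowest in propafenone tumours (154 ± 11.8 TPM, range 140 to 169) and higher in combination (220 ± 32.9, range 201 to 279) and anti-PD-1 tumours (205 ± 19.4, range 188 to 235), with IgG between (175 ± 16.4, range 152 to 195). The propafenone range thus lay below those of anti-PD-1 and combination tumours. The ratio of summed TIMP to summed MMP TPM was 1.10 ± 0.189 in IgG, 0.911 ± 0.0932 in propafenone, 1.28 ± 0.289 in anti-PD-1 and 1.18 ± 0.0935 in combination tumours. These sums were not tested.

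The 13 genes that did not pass the filter were at most 0.252 TPM in any tumour. Mmp7 (matrilysin), Mmp1b, Mmp16 and Mmp21 had no count in any of the 20 tumours. The other 9 were Mmp20, Mmp24, Timp4, Adamts3, Adamts8, Adamts16, Adamts18, Adamts19 and Adamtsl3. If 4 counts per sequenced fragment are assumed, 3 fragments correspond to 12 counts or at most 0.231 CPM. Under that assumption, this is the level a 0 still allows from counting error alone. Not every value was a multiple of 4, since the highest count was 2 for Mmp20 and 5 for Adamts18, so this level is only a rough guide.

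Differences between groups were tested for all 15875 genes with edgeR, with a gene called at a Benjamini-Hochberg adjusted p under 0.05. Against IgG, the combination changed 2 of the 37 genes, Mmp19 and Mmp23, both higher. That is 5.41% of them, beside 4.88% of all genes called in either direction, so the share was near the background. Genes called higher made up 2.24% of all genes and those called lower 2.63%, and none of the 37 was called lower. Against propafenone, 5 of the 37 genes were higher in combination tumours (Mmp2, Mmp19, Mmp23, Timp2 and Timp3) and none was lower. That is 13.5%, beside 3.88% of all genes in either direction and 1.67% called higher (2.21% were called lower). At an unadjusted edgeR p under 0.05 there were 9 of the 37 genes against IgG (24.3%, beside 23.6% of all genes). Against propafenone there were 14 (37.8%, beside 23.2% of all genes). The 2 comparisons share the combination tumours, so their calls are not independent of each other. In such bulk samples, fewer cells of a type and less RNA per cell cannot be told apart.

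Mmp19 had the largest called rise against IgG. It encodes a secreted MMP that cuts basement membrane proteins and is made by many tissues, macrophages among them; the gene lies at chr10:128790910-128800824 on the plus strand (GRCm38). Its level was 1.31, 2.53, 1.56, 2.22 and 1.58 CPM in the IgG tumours and 4.77, 4.37, 6.31, 3.63 and 5.77 CPM in the combination tumours. Every combination tumour was therefore above every IgG tumour. Propafenone tumours had 1.18, 1.97, 2.6, 2.41 and 3.24 CPM, also all below the combination, while anti-PD-1 tumours (1.52, 1.94, 3.56, 2.87 and 3.69 CPM) overlapped it at their upper end. The log2 fold change was 1.43 ± 0.28 (SE) against IgG (edgeR adjusted p = 0.0169) and 1.12 ± 0.28 against propafenone (edgeR adjusted p = 0.035). Against anti-PD-1 it was 0.87 ± 0.28, which did not pass (edgeR adjusted p = 0.445). Tmem198b on the opposite strand shares 789 of the 3533 exonic bases of Mmp19, and the strand setting of the counting is not given in the sources used here, so Mmp19 counts are uncertain to that extent. The level of Tmem198b had a median of 12.6 CPM in IgG and 10.9 in combination tumours.

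Mmp23 was called in both comparisons. It encodes a membrane-anchored MMP without the hemopexin domain found in most of the family, at chr4:155650655-155653384 on the minus strand. IgG tumours had 1.37, 0.645, 1.13, 0.972 and 1.23 CPM and combination tumours 1.73, 1.75, 3.3, 2.27 and 1.57 CPM. In propafenone tumours it was 0.588, 1.04, 0.666, 0.765 and 0.652 CPM. Both groups lay wholly below the combination, whereas anti-PD-1 tumours (1.21, 2.69, 1.48, 1.73 and 1.61 CPM) overlapped it. This was a log2 fold change of 0.99 ± 0.27 (SE) against IgG (edgeR adjusted p = 0.0411) and 1.51 ± 0.27 against propafenone (edgeR adjusted p = 0.0177). The gene stayed low in absolute terms, at 3.8 ± 1.2 TPM in combination and 1.26 ± 0.35 TPM in propafenone tumours.

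**Figure D2:**
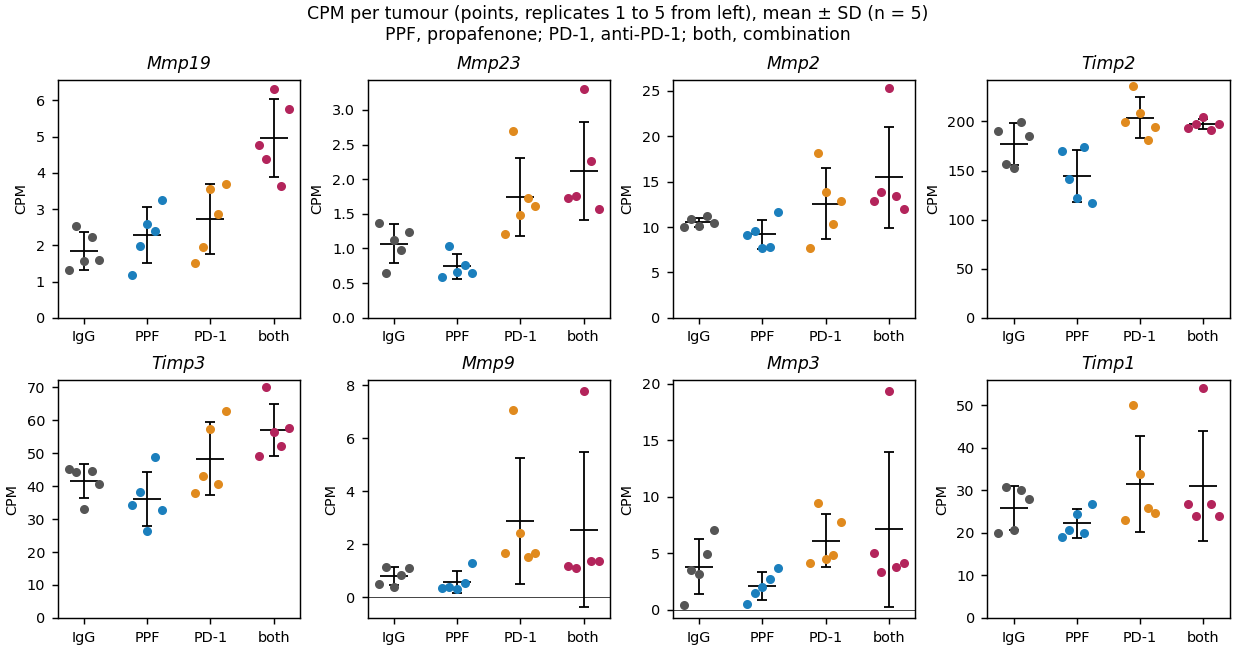
CPM of 8 genes in each tumour (points, replicates 1 to 5 from left within a group) with the group mean ± SD (n = 5) on linear axes. All combination tumours lie above the IgG and propafenone tumours for Mmp19, Mmp23, Mmp2 and Timp3, and 1 combination tumour stands far above the other 4 for Mmp2, Mmp9, Mmp3 and Timp1.

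Mmp2 encodes gelatinase A, a secreted protease of denatured and basement membrane collagen that fibroblasts make in quantity, at chr8:92827291-92853420 on the plus strand. Its level was 9.11, 9.6, 7.72, 7.84 and 11.7 CPM in propafenone tumours and 12.8, 13.9, 25.3, 13.4 and 12 CPM in combination tumours. The groups did not overlap, but the third combination tumour stood far above the rest. The log2 fold change was 0.75 ± 0.21 (SE) against propafenone (edgeR adjusted p = 0.0473), and without that tumour it was 0.51 (edgeR adjusted p = 0.126). IgG tumours were tightly grouped at 10, 10.8, 10.1, 11.3 and 10.4 CPM and also all below the combination, with a log2 fold change of 0.56 ± 0.21 that did not pass (edgeR adjusted p = 0.11). Anti-PD-1 tumours ran from 7.69 to 18.2 CPM and overlapped every other group.

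The other gelatinase, Mmp9, which neutrophils and macrophages are known to make, was uneven between tumours of a group. IgG tumours had 0.491, 1.15, 0.398, 0.836 and 1.12 CPM, and propafenone tumours 0.366, 0.378, 0.325, 0.542 and 1.29 CPM. In anti-PD-1 tumours the values were 1.68, 7.07, 2.44, 1.51 and 1.68 CPM, and in combination tumours 1.18, 1.09, 7.8, 1.36 and 1.36 CPM. Each of the last 2 groups thus held 1 tumour several times above its other 4. Anti-PD-1 tumours were all above IgG tumours, the only 1 of the 37 genes (0.454% of all genes were higher without overlap), yet the log2 fold change of 1.84 ± 0.6 did not pass (edgeR adjusted p = 0.49). Against propafenone the combination differed by 2.14 ± 0.61 (edgeR adjusted p = 0.052), and by 1.11 without the third combination tumour (edgeR adjusted p = 0.208).

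Of the 3 tested TIMPs, Timp2 and Timp3 were called, both higher, in combination against propafenone. Timp2 encodes an inhibitor that is also needed for the activation of pro-MMP2 on the cell surface, and lies at chr11:118301069-118355740 on the minus strand. Its level was 170, 141, 122, 174 and 117 CPM in propafenone tumours and 194, 198, 204, 191 and 198 CPM in combination tumours. The 2 groups did not overlap, and the combination tumours were close together. On the log2 scale they differed by 0.44 ± 0.1 (SE), a difference of 1.36-fold (edgeR adjusted p = 0.0311). IgG tumours (190, 157, 152, 200 and 185 CPM) overlapped the combination, and the log2 fold change of 0.16 did not pass (edgeR adjusted p = 0.382). Anti-PD-1 tumours ran from 181 to 236 CPM.

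Timp3 encodes the matrix-bound inhibitor, which also blocks ADAM and ADAMTS proteases, at chr10:86300372-86349506 on the plus strand. Propafenone tumours had 34.3, 38.2, 26.4, 48.7 and 32.7 CPM and combination tumours 49.2, 70, 56.5, 52.1 and 57.6 CPM. The gap between the highest propafenone and the lowest combination tumour was narrow. Combination tumours were higher by 0.66 ± 0.16 (SE) on the log2 scale against propafenone (edgeR adjusted p = 0.0308). All combination tumours were also above the IgG tumours (45.2, 44.4, 33.1, 44.6 and 40.6 CPM), where the log2 fold change of 0.46 ± 0.16 did not pass (edgeR adjusted p = 0.0852). Syn3 on the opposite strand shares 1733 of the 8144 exonic bases of Timp3, and its own level was low, with medians of 1.51 CPM in propafenone and 1.29 CPM in combination tumours.

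Timp1, an inhibitor induced in inflamed and wounded tissue, was not called in any comparison. Its level was 23.9 to 26.7 CPM in 4 of the combination tumours and 54.1 CPM in the third, beside 19.9 to 30.8 CPM in IgG tumours. The log2 fold change against propafenone was 0.49 (edgeR adjusted p = 0.214). In anti-PD-1 tumours 1 of the 5 stood out as well, at 50.1 CPM against 22.9 to 33.7 CPM.

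**Figure D3:**
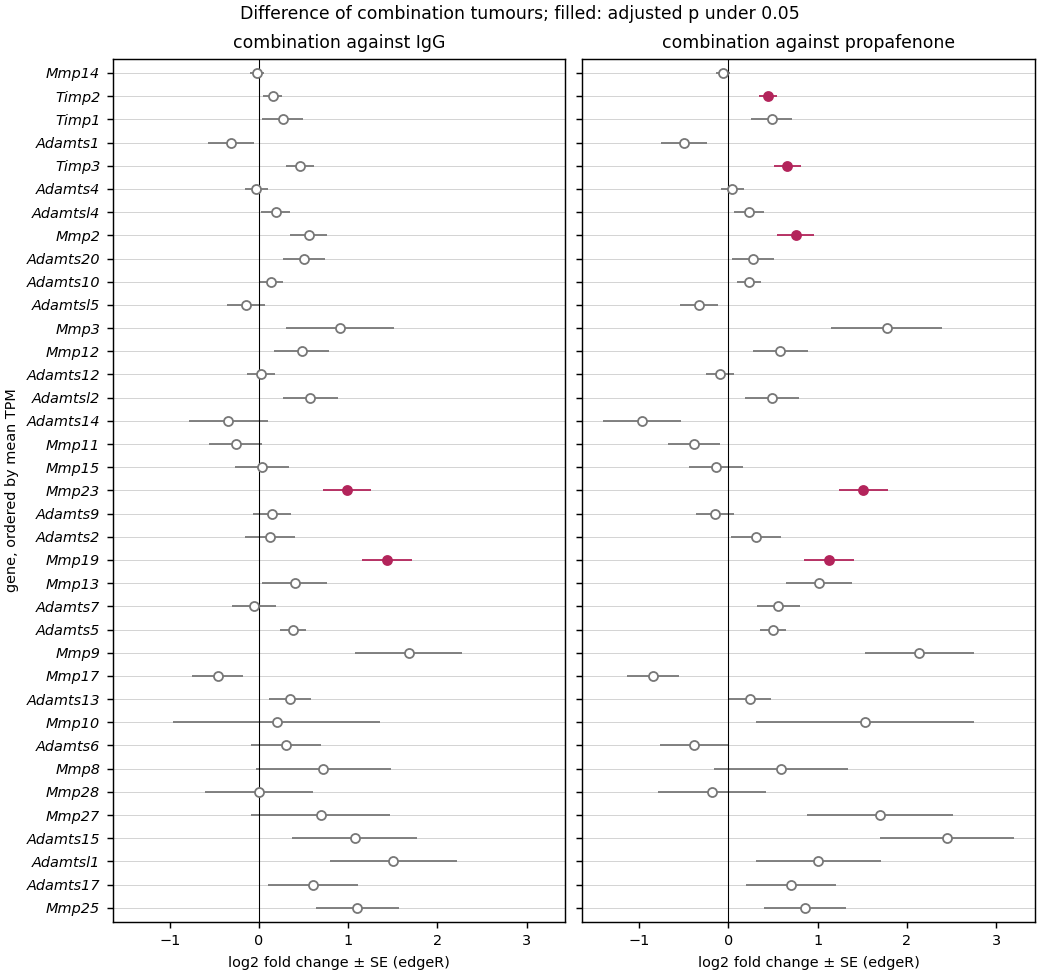
Log2 fold change ± SE of the 37 tested genes (rows, ordered by mean TPM) in combination tumours against IgG (left) and against propafenone (right), n = 5 per group, with filled points at an adjusted p under 0.05. Mmp19 and Mmp23 are filled on the left, and Mmp2, Mmp19, Mmp23, Timp2 and Timp3 on the right.

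Among the collagenases and stromelysins no gene was called. Mmp13 (collagenase 3) was at 1.12 ± 0.49 TPM in IgG, 0.775 ± 0.37 in propafenone, 1.84 ± 0.9 in anti-PD-1 and 1.62 ± 0.38 in combination tumours, and Mmp8, the neutrophil collagenase, was at most 0.467 TPM in every tumour. Mmp3 (stromelysin 1, which activates other pro-MMPs) was 0.477, 1.43, 2.01, 2.72 and 3.73 CPM in propafenone tumours and 4.98, 3.33, 19.4, 3.77 and 4.09 CPM in combination tumours. Its log2 fold change of 1.78 ± 0.62 did not pass (edgeR adjusted p = 0.0995) and was 0.96 without the third combination tumour (edgeR adjusted p = 0.333). IgG tumours ranged widely, from 0.393 to 7.06 CPM. Mmp10 (stromelysin 2) had no count in 4 of the 20 tumours and reached 2.42 CPM in 1 anti-PD-1 tumour. Mmp12, the macrophage elastase, was at 3.21 ± 0.95 TPM in IgG, 3.16 ± 1.5 in propafenone, 5.97 ± 2.5 in anti-PD-1 and 4.88 ± 1.5 in combination tumours. Of the 9 genes of the chromosome 9 cluster 6 were tested (Mmp3, Mmp8, Mmp10, Mmp12, Mmp13 and Mmp27), and none was called in any comparison.

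The remaining MMPs gave no call. Mmp11 (stromelysin 3, typically made by stromal fibroblasts around tumours) averaged 2.75 to 3.49 TPM over the groups, and Mmp15 (MT2-MMP) 2.53 to 2.98 TPM. Mmp17, a GPI-anchored MMP, was at 0.648 ± 0.24 TPM in IgG, 0.904 ± 0.37 in propafenone, 0.467 ± 0.15 in anti-PD-1 and 0.513 ± 0.12 in combination tumours, with overlapping ranges. Mmp28 (epilysin) averaged 0.164 to 0.225 TPM.

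None of the 14 tested ADAMTS genes and none of the 4 ADAMTS-like genes was called. Adamts1, a versican- and aggrecan-cutting protease also known to curb vessel growth, was at 38.4 ± 15 TPM in IgG, 45.2 ± 14 in propafenone, 34.9 ± 13 in anti-PD-1 and 33.1 ± 3.5 in combination tumours. The spread over combination tumours (30.1 to 38.8 TPM) lay within that of IgG tumours (24.2 to 61.2 TPM). Adamts4, another proteoglycanase, was at 19.9 ± 5.4 TPM in IgG and 21 ± 1 TPM in combination tumours. Adamts5, the main aggrecanase of mouse cartilage, was at 0.994 ± 0.12 TPM in IgG, 0.959 ± 0.18 in propafenone, 1.27 ± 0.18 in anti-PD-1 and 1.4 ± 0.23 in combination tumours. Its log2 fold change against propafenone was 0.50 ± 0.15, just outside the threshold (edgeR adjusted p = 0.0554). Adamts15 was higher in every combination tumour (0.487, 0.789, 1.95, 0.735 and 0.742 CPM) than in any propafenone tumour (0.0636, 0.11, 0.146, 0.255 and 0.277 CPM). At these low levels its log2 fold change of 2.45 ± 0.75 did not pass (edgeR adjusted p = 0.0632).

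The other ADAMTS genes of the panel were not called either. Adamts9, a proteoglycanase of developing tissue, averaged 1.88 to 2.77 TPM over the groups, Adamts10, which binds fibrillin, 7.25 to 8.7 TPM, and Adamts12 3.8 to 4.31 TPM. The procollagen N-proteinases Adamts2 and Adamts14 averaged 2.03 to 2.64 and 2.36 to 4.46 TPM. Adamts14 was spread widely in propafenone tumours, at 5.42, 5.15, 21.6, 5.27 and 17.4 CPM. Of the ADAMTS-like genes, Adamtsl4, known for its part in anchoring the eye lens, had the highest level, at 8.99 ± 1.3 TPM in IgG and 11.1 ± 1.8 TPM in combination tumours.

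Counted without a model, every combination tumour was above every IgG tumour in 5 of the 37 genes (13.5%, against 4.72% of all genes): Mmp2, Mmp19, Mmp23, Timp3 and Adamts20. It was above every propafenone tumour in 6 (16.2%, against 3.65%): Mmp2, Mmp19, Mmp23, Timp2, Timp3 and Adamts15. In neither comparison did a gene lie wholly below, which 7.21% and 4.88% of all genes did. The median log2 fold change of the 37 genes was 0.30 against IgG and 0.49 against propafenone, with -0.01 for all genes in both. Without the third combination tumour these medians were 0.18 and 0.38, and with a fibroblast marker score as covariate -0.0080 and 0.0013. With a macrophage marker score they were 0.16 and 0.36, and with a muscle marker score 0.51 and 0.51. Against IgG 29 of the 37 estimates were above 0 (78.4%, against 48.2% of all genes), and 26 against propafenone (70.3%, against 49%). The 37 genes were measured in the same tumours, so these estimates are not independent of each other.

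Single agents gave no call among these genes, nor among all 15875 (0% called in propafenone against IgG and in anti-PD-1 against IgG). At an unadjusted edgeR p under 0.05 there were 2 of the 37 genes for propafenone (4.75% of all genes) and 4 for anti-PD-1 (7.58%). Propafenone and IgG tumours overlapped in all 37 genes, while 0.529% of all genes lay wholly higher and 0.706% wholly lower. For propafenone the smallest p among lower estimates were those of Timp2 (log2 fold change -0.29 ± 0.1), Adamts7 (-0.62 ± 0.24) and Mmp23 (-0.53 ± 0.27), and among higher estimates those of Adamts6 (0.68 ± 0.39), Adamts14 (0.62 ± 0.44) and Adamts9 (0.30 ± 0.21), each with an edgeR adjusted p of 0.913. For anti-PD-1 they were Mmp9, Mmp12 (0.86 ± 0.31, edgeR adjusted p = 0.515) and Mmp23 (0.70 ± 0.27, edgeR adjusted p = 0.561) among higher estimates, and Mmp17 (-0.50 ± 0.29), Mmp14 (-0.10 ± 0.08) and Adamts9 (-0.17 ± 0.22) among lower ones. The median log2 fold change of the 37 genes was -0.04 for propafenone and 0.22 for anti-PD-1, beside 0.00 for all genes. Without the second anti-PD-1 tumour the anti-PD-1 median was 0.093, and with the fibroblast score as covariate 0.039. With the macrophage score it was 0.080, and with the muscle score 0.37. The sign of the propafenone median was not settled. It was 0.038 without the third IgG tumour, -0.096 without the second and 0.068 with the muscle score. Without several other single tumours it was above 0 as well.

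The combination was not told apart from anti-PD-1 alone in any gene (0% called), and 1 of the 37 genes had an unadjusted edgeR p under 0.05 (9.78% of all genes did). Beside Mmp19 the smallest p were those of Mmp25 (0.87 ± 0.46) and Adamts20 (0.44 ± 0.24) among higher estimates, and of Adamtsl5 (-0.31 ± 0.22), Mmp12 (-0.38 ± 0.31) and Mmp10 (-1.21 ± 1.14) among lower ones. The interaction, the combination effect minus the sum of both single effects on the log2 scale, also gave no call (0% of all genes), with 2 of the 37 genes at an unadjusted edgeR p under 0.05 (3.04% of all genes). Its smallest p were those of Mmp23 (0.81 ± 0.38), Adamts15 (2.17 ± 1.02) and Adamts7 (0.70 ± 0.34) among higher estimates, and of Adamtsl5 (-0.49 ± 0.31), Adamts14 (-0.99 ± 0.62) and Adamts1 (-0.37 ± 0.37) among lower ones, all with an edgeR adjusted p of 0.99. The calls against IgG and propafenone therefore do not show that the agents together did more than the sum of each alone.

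A list of 42 partners in matrix proteolysis (plasminogen activators, ADAM proteases, cathepsins, inhibitors and proteoglycan substrates), of which 38 were tested, had 3 genes called higher and none lower against IgG. Vcan, the proteoglycan versican and a substrate of several ADAMTS proteases, rose from 2.51 ± 0.878 to 6.94 ± 1.86 CPM (log2 fold change 1.46 ± 0.28, edgeR adjusted p = 0.014). Plau, the urokinase plasminogen activator, rose from 5.28 ± 1.53 to 11 ± 1.59 CPM (1.06 ± 0.24, edgeR adjusted p = 0.0237), and Fap, a serine protease of activated fibroblasts, from 0.574 ± 0.239 to 1.34 ± 0.293 CPM (1.22 ± 0.29, edgeR adjusted p = 0.0263). Against propafenone the same genes were called higher again, Plau at 1.19 ± 0.24, Vcan at 1.30 ± 0.28 and Fap at 1.17 ± 0.28. Serpine2, an inhibitor of thrombin and plasminogen activators, joined them at 0.89 ± 0.25 (edgeR adjusted p = 0.0489). Bcan, the proteoglycan brevican, was the 1 gene called lower, at -2.04 ± 0.57 (edgeR adjusted p = 0.0495). None of the 38 was called in the other 4 comparisons.

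Markers of several host cell types were called in the same comparisons. Against IgG, 5 of 16 fibroblast markers, 10 of 15 macrophage and monocyte markers and 9 of 15 muscle markers were called higher in combination tumours, and none lower. Against propafenone the counts were 10 of 16, 2 of 15 and 5 of 15. Of 10 endothelial markers 1 was called higher against IgG and 2 against propafenone, with median log2 fold changes of 0.32 and 0.59. Of 8 red blood cell markers 2 were called lower against IgG and 1 against propafenone, with medians of -3.70 and -3.10. Summed fibroblast markers ran from 919 to 1579 CPM in IgG, 934 to 1182 in propafenone, 1116 to 2590 in anti-PD-1 and 1455 to 2558 in combination tumours. Macrophage and monocyte markers ran from 43.1 to 199, 66.6 to 217, 133 to 249 and 222 to 491 CPM, and muscle markers from 7.02 to 89.3, 14.8 to 78.2, 7.07 to 325 and 43.8 to 601 CPM in the same order.

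With the fibroblast score of each tumour (the mean of the centred log2 CPM of the 16 markers) as a covariate, none of the 37 genes was called in either comparison, where 562 and 14 of all genes were. Mmp2 then had a log2 fold change of -0.02 against propafenone (edgeR adjusted p = 0.983), that of Timp2 0.22 (edgeR adjusted p = 0.573) and that of Mmp19 against IgG 0.99 (edgeR adjusted p = 0.162). With the macrophage score no gene of the 15875 was called. The log2 fold change of Mmp19 against IgG was then 0.57 (edgeR adjusted p = 0.601) and that of Mmp23 1.14 (edgeR adjusted p = 0.494). With the muscle score, 6 of the 37 genes were called higher against propafenone, Mmp2, Mmp23 and Timp2 among them (695 of all genes, 4.38%, were called), and none against IgG, where no gene at all was called. These scores are measured in the same tumours and differ between the groups, so the part of each cell type in the results was not tested.

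In 2 tumours a few secreted proteases of low or middle level, and Timp1, were the highest of the group, some of them by far. The third combination tumour was the highest of its group in 17 of the 37 genes (45.9%), beside 26.4% of 15145 genes of at least the lowest member's mean level. Against the median of the other 4 combination tumours it had 1.93 times the CPM of Mmp2, 2.13 times that of Timp1, 2.64 times that of Adamts15, 4.93 times that of Mmp3 and 6.14 times that of Mmp9. Its Mmp14 (171 CPM) and Timp3 (56.5 CPM) were within the range of the other 4, and it had 0.952 times their median of Adamts1 and 1.03 times that of Adamts4, the most abundant secreted proteases. The second anti-PD-1 tumour, picked like the first after its values were seen, had 4.21 times the Mmp9, 2.02 times the Mmp3 and 1.99 times the Timp1 of the median of the others in its group, and 11.8 times the Mmp10. It had 0.906 times the Adamts1 and 0.894 times the Adamts4 of that median, and was the highest of its group in 11 of the 37 genes (29.7%), near the 27.3% of all these genes. Its Mmp3 (9.41 CPM) was not far above that of the next tumour of the group (7.75 CPM). The fifth anti-PD-1 tumour was the highest in 15 of the 37 (40.5%), beside 13.3% of all these genes, Mmp12, Mmp13, Mmp14, Mmp19 and Timp3 among them. The third combination and the second anti-PD-1 tumour had the highest fibroblast scores of their groups (1.16 and 0.987) and muscle scores of -0.69 and -3.84, on a scale where 0 is the mean over all tumours.

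**Figure D4:**
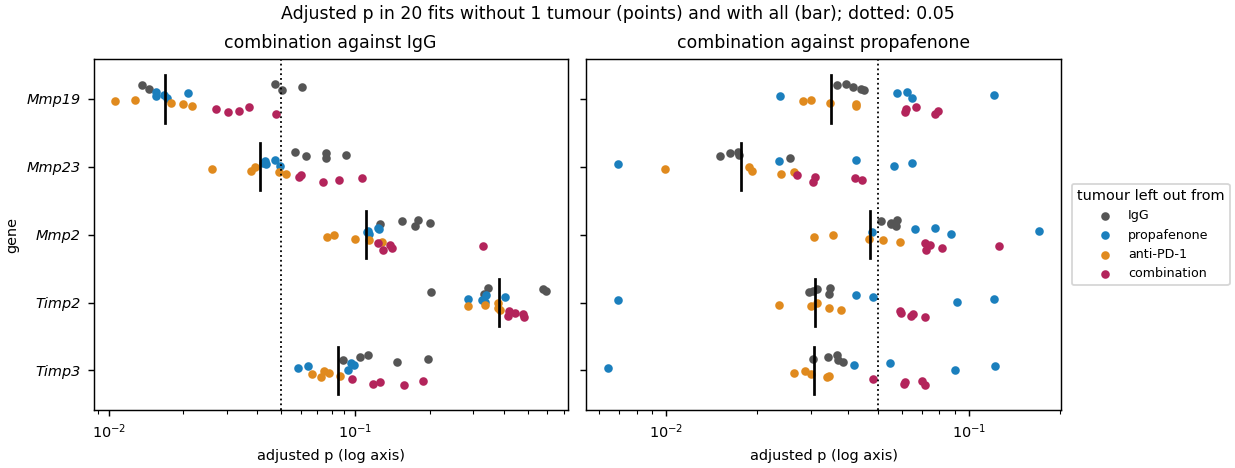
edgeR adjusted p (log axis) of the 5 called genes in 20 fits that each leave out 1 tumour (points, coloured by the group of the tumour left out), with the value from all tumours as a black bar and 0.05 as a dotted line. Mmp19 against IgG and Mmp23 against propafenone stay left of the line in 18 of 20 fits, and the other called genes cross it more often.

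The calls depended on single tumours to different degrees. Mmp19 against IgG was called in 18 of 20 fits that left out 1 tumour, all but those without the third and the fifth IgG tumour, and Mmp23 against propafenone in 18 of 20, all but those without the third or the fifth propafenone tumour. Timp2 and Timp3 against propafenone were called in 13 each, Mmp19 against propafenone in 11, Mmp23 against IgG in 9 and Mmp2 in 4. These counts include fits that left out a tumour of a group outside the comparison. Mmp23 against IgG lost its call without any single IgG or combination tumour. Mmp19, Timp2 and Mmp2 against propafenone lost theirs without any single combination tumour, and Timp3 without any but replicate 1. Among propafenone tumours, Mmp19 and Mmp2 withstood only the loss of replicate 4. The number of the 37 genes called against IgG ranged from 0 (without the third or the fifth IgG tumour, where 5 and 67 of all genes were called) to 2, and against propafenone from 0 (without the third or the fifth propafenone tumour, where 4 and 23 of all genes were called) to 10 (without the fourth, where 1882 of all genes, 11.7%, were). Without the second, the third, the fourth or the fifth combination tumour, each left out alone, Mmp23 was the only gene of the 37 called against propafenone. The direction of these 5 genes was higher in the combination in each of the 20 fits. In another fit all tumours of more than 1000 CPM of the haemoglobin gene Hbb-bs were left out (5 of 20, none of them combination tumours). Then 2 of the 37 genes (Mmp19 and Adamtsl2) were called against IgG, beside 6.03% of all genes. Against propafenone 7 of the 37 were called, a larger share than the 7.05% of all genes.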

How the data were processed

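RNA of 20 tumours was analysed from 2 tables. Per the submitters' processing notes, reads were handled with FastQC, HISAT2 2.2.1 and SAMtools 1.9 on GRCm38/mm10, and per the labels libraries were made with a SMARTER mRNA kit. The counting tool, annotation release and strand setting are not given in the sources used here. The deposited count table holds expected counts, estimated reads per gene stored as whole numbers, and the other deposited table holds TPM, made by the authors. Depth was 55.99 to 64.52 M per tumour (TMM factors 0.926 to 1.05). No 2 libraries were copies of each other (lowest chi-square per degree of freedom over 190 pairs 4.21, on counts divided by 4).

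The tests used edgeR 4.0.16 in R 4.3.3: filterByExpr (minimum count 10; 15875 genes with 99.98% of counts kept), TMM, robust quasi-likelihood, 1 mean per group over all tumours, 16 residual degrees of freedom, Benjamini-Hochberg adjustment over all genes, 6 comparisons. Standard errors are the size of the log2 fold change over the square root of F. On simulated counts for combination against IgG (15875 genes), 45% of 1.5-fold and 72% of 2-fold changes were recovered, and 2 unchanged genes were called. This was 1 run with 100 genes changed at each fold, and each gene was drawn on its own. It held no variation shared between genes, so these rates need not hold for the tumours. The genes named are the called members, a fixed panel of members and, where no member was called, the 3 smallest p in each direction; from the list of partners, called genes. Other members are named by level or count, or were picked after their values were seen. The members and lists were chosen with earlier results of these data known. Positions come from GENCODE mouse release M21, and promoters from RefSeq, matched by symbol. Alternatives included DESeq2 1.42.0, limma 3.58.1 (voom, and log2 TPM with 0.1 or 1 added), other scaling, no filter, the 2 groups alone, covariates and left-out tumours.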

Additional observations from a re-analysis of the deposited data

Results flagged for a closer look

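In groups of 5 tumours, the gap of the highest or lowest tumour to its nearest neighbour was set against the whole range for 12 members, the 5 called ones with Mmp3, Mmp9, Mmp12, Mmp14, Timp1, Adamts5 and Adamts15. Of 48 such groups 7 had a tumour that stood apart by Dixon's criterion, in each case the highest. For normally distributed values the criterion is reached in about 1 of 20 groups. The 12 members were chosen with results of these data known, and CPM was not log-transformed. The 7 therefore cannot be set against that rate. In the combination group the third tumour stood apart in 5 genes, with 25.3 CPM of Mmp2 beside 12 to 13.9 in the others, 19.4 CPM of Mmp3 beside 3.33 to 4.98, 7.8 CPM of Mmp9 beside 1.09 to 1.36, 54.1 CPM of Timp1 beside 23.9 to 26.7, and 1.95 CPM of Adamts15 beside 0.487 to 0.789. These values come from 1 library and are therefore not independent of each other. The second anti-PD-1 tumour had 7.07 CPM of Mmp9 beside 1.51 to 2.44, and the fifth propafenone tumour 1.29 CPM of Mmp9 beside 0.325 to 0.542.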

How the results depend on the processing

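Against IgG the 2 members called became 4 with DESeq2 (Mmp9, Mmp19, Mmp23 and Timp3), where 1408 genes were called in all. They became 4 with only the 2 groups compared (1786 genes, 11.8%, called in all) and 1 with no filter on low counts (463 genes called in all). The count was 0 with the fibroblast, macrophage or muscle score as covariate, and 0 to 2 without 1 tumour. Against propafenone the 5 became 9 with DESeq2 (1458 genes called in all), 0 with the fibroblast or macrophage score, and 0 to 10 without 1 tumour. DESeq2 was run on all 32285 genes without the filter. Its shares of 4.36% and 4.52% are over these genes, unlike the 4.88% and 3.88% of the main fit. The share without the filter, 2.07%, is over all genes with any count. In the other 4 comparisons the count of members was 0 under each alternative run, DESeq2 included, which called 4 of all genes in propafenone against IgG, 26 in anti-PD-1 against IgG, 7 in combination against anti-PD-1 and 0 in the interaction. Replicate numbers gave no clear sign of pairing: over 30 pairs with the same number the correlation averaged -0.00694 (-0.41 to 0.369). Among the tumours of other groups, 7 of 20 tumours correlated best with one of their own number. Whether that exceeds what unpaired numbers give was not tested. With the replicate number as a block, 1 of the 37 members (Mmp19) was called against IgG, where 5.22% of all genes were. Against propafenone 4 of the 37 were called, a larger share than the 4.25% of all genes.

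Estimates that changed sign were, with the fibroblast score as covariate against IgG, Timp2 (-0.0233), Mmp2 (-0.11), Mmp9 (-0.78), Mmp3 (-1.10), Timp1 (-0.53) and Adamts15 (-0.69), and against propafenone Mmp2 (-0.0195), Mmp9 (-0.599), Mmp3 (-0.629) and Timp1 (-0.48). With it, anti-PD-1 against IgG gave Mmp14 0.0320 and Adamts9 0.0268. The macrophage score reversed Mmp3 (-0.46), Timp1 (-0.19) and Adamts15 (-0.46) against IgG. Without the third combination tumour Timp1 against IgG was -0.0265, and it was 0.35 without the second. Mmp10 in combination against anti-PD-1 became 0.24 without the tumours high in Hbb-bs, 0.25 with the muscle score and 0.23 without the second anti-PD-1 tumour (-1.94 without the third combination tumour). The cause was not tested.

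Members under 1 TPM rest on few counts, and at this depth a missing call there does not show equal levels. How many counts stand for 1 fragment is not known. With counts divided by 4, Adamts5 and Adamts15 passed against propafenone (edgeR adjusted p = 0.0478 and 0.0419).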
